A study of Saccharomyces cerevisiae with 8 samples.

Results

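Stable unannotated transcripts (SUTs) are noncoding RNAs that RNA polymerase II makes from many yeast promoters and that stay detectable while the nuclear exosome is active. Described here are the SUTs whose density without Upf1 was less than 2 times that with Upf1, once a constant was added to both. Upf1 is the helicase on which nonsense-mediated decay of RNA (NMD) depends. They were chosen on the deposited densities by 2 bounds. The mean of the 8 libraries had to be at least 0.02, and the ratio of upf1 to WT in DMSO, with 0.003 added to both group means, had to lie below 2. Without the 0.003, the densities of some chosen SUTs differ by more than 2 times, as in SUT729 (0.00728 in WT DMSO, 0.0176 in upf1 DMSO). Of 11966 features in all and 845 SUTs, 644 reached the density bound and 207 of these, or 32.1%, had a ratio below 2, as had 75.3% of all features tested below. The other 437 had a ratio of 2 or more, and 201 SUTs lay under the density bound.

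NMD recognises RNAs on which a ribosome stops early, so that an RNA has to be bound by ribosomes in the cytoplasm to become its substrate. Many noncoding RNAs of yeast carry short open reading frames and are degraded in this way before the exonuclease Xrn1 removes them. Drugs that stop translation, such as anisomycin, which blocks peptide bond formation, are known to stop NMD as well. CUTs are the class removed by the nuclear exosome and XUTs the class removed by Xrn1.

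All cells were Saccharomyces cerevisiae BY4741, a haploid laboratory strain (MATa) with the his3Δ1, leu2Δ0, met15Δ0 and ura3Δ0 alleles, grown in YPD at 30 °C to an OD600 of 0.5. The upf1 strain carried in addition a kanMX4 replacement of UPF1, the gene also named NAM7. Cultures of both strains received anisomycin (ANS) at 100 µg/ml for 30 min or the same volume of DMSO, its solvent, and strand-specific libraries were made from total RNA after ribosomal RNA had been removed. Each of the 4 groups, called WT DMSO, upf1 DMSO, WT ANS and upf1 ANS, held 2 biological replicates, and how many clones of the mutant were used is not given in the sources used here.

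Reads recovered from the densities numbered 6954353 to 11994371 per library, and 0.0447 to 0.113% of them lay on the 207 SUTs. NAM7 had a density of 0.432 and 0.449 in WT DMSO against 0.0113 and 0.00975 in upf1 DMSO, and of 1.24 and 1.59 in WT ANS against 0.0210 and 0.0244 in upf1 ANS, so that every library matched its genotype label. Densities are reads per nt on a scale that keeps small nucleolar RNAs (snoRNAs) level. On this scale the median protein-coding gene rose by 1.72 (log2) under ANS in WT, and changes are therefore also given relative to protein-coding genes, after each library was divided by its median ratio over those genes. P-values measure the spread between the biological replicates of these cultures. Whether each cell changed or a share of the cells did cannot be told apart in bulk RNA.

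The SUTs were sparse. Their median density per library was 0.0165 and 0.0168 for WT with DMSO, 0.0481 and 0.0612 for WT with ANS, 0.0232 and 0.02298 for upf1 with DMSO and 0.0610 and 0.0642 for upf1 with ANS. Single SUTs ranged from 0 to 0.614 in WT DMSO and from 0.0183 to 1.54 in upf1 ANS. The median SUT had 7 and 10 reads in the WT DMSO libraries and 23 and 29 in the upf1 ANS libraries, and 122 of 207 had fewer than 10 reads in WT DMSO replicate 1. In WT DMSO 7 of them had 3 reads or fewer over both libraries, and in upf1 DMSO 3 had. Few ratios were fixed to one side of the bound at this depth. The 95% counting interval of the plain read ratio in DMSO (exact Clopper-Pearson, on summed reads) lay wholly below 2 for 49 SUTs. It reached 2 for 157, and 1 SUT had no DMSO reads. The plain ratio can exceed the ratio that chose the SUTs, as for SUT380 (2.65 against 1.9985), so the 157 do not reflect counting error alone. These intervals cover counting error only and take reads as independent molecules, while 59.6 to 62.2% of the counts above 0 in a library were even numbers. If reads are not independent, as when both mates of a pair are counted, the intervals are too narrow and the numbers of SUTs clear of a bound too high. This was not tested.

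The ratios that chose the SUTs ran from 0.464 to 2.00 with a median of 1.40, and are a description with no test. Of the 207 SUTs 29 had a ratio below 1, 68 lay between 0.8 and its reciprocal, 92 between 1.5 and 2, and 5 below 0.8. Nearest inside the ratio bound were SUT729 (1.9995), SUT380 (1.9985) and SUT278 (1.993), and nearest outside were SUT792 (2.0002), SUT576 (2.004) and SUT771 (2.0045). Their values overlap, since SUT729 had 16 reads in WT DMSO and 47 in upf1 DMSO while SUT576 had 14 and 43. At the density bound SUT378, SUT222 and SUT738 lay just inside with means of 0.0201, 0.0202 and 0.0204, and SUT813, SUT283 and SUT598 just outside with 0.01997, 0.0199 and 0.0196.

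Set beside the median protein-coding gene, the 207 SUTs lay within a narrow range in all 4 groups. Their median density, taken as a percentage of that gene's, was 11.7% ± 0.0490 (SD, n = 2) in WT DMSO, 13.1% ± 0.825 in upf1 DMSO, 10.5% ± 0.00186 in WT ANS and 12.0% ± 1.33 in upf1 ANS. By library the WT values were 11.7 and 11.8% with DMSO and 10.461 and 10.464% with ANS, and the upf1 values 12.5 and 13.7% with DMSO and 11.01 and 12.9% with ANS. The SUTs with a ratio of 2 or more moved from 7.32% ± 0.549 in WT DMSO to 13.3% ± 0.110 in WT ANS, and from 24.8% ± 1.59 in upf1 DMSO to 20.7% ± 0.756 in upf1 ANS. XUTs chosen by the same bounds, 451 in number, lay at 7.77% ± 0.548 and 9.39% ± 0.488 in WT without and with ANS, and at 9.29% ± 0.574 and 10.6% ± 0.677 in upf1. The DMSO values are those the bounds used, so that their differences are a description. Under ANS the mean percentage of the 207 was lower in both strains. The median change of single SUTs relative to protein-coding genes, given below, was 0.17 in WT and 0.02 in upf1. These 2 summaries thus differ in sign.

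**Figure D1:**
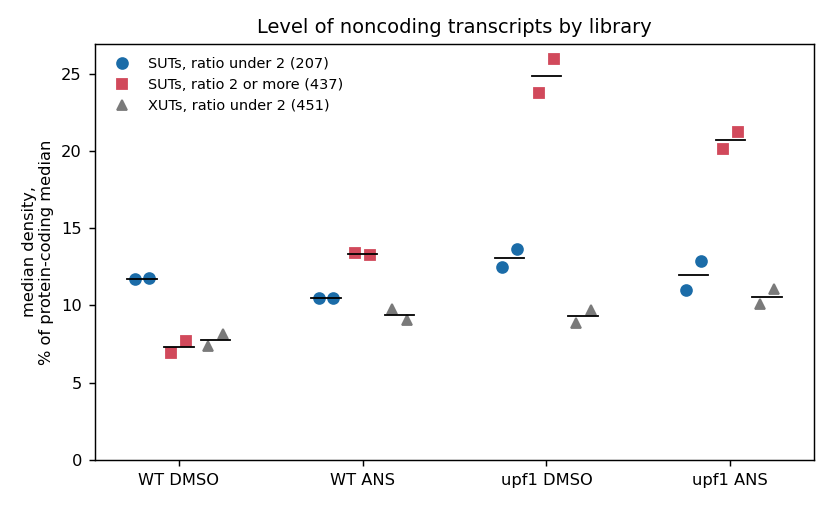
Median density of 3 sets of noncoding transcripts as a percentage of the protein-coding median (y axis) in the 4 groups (x axis), with 1 point per library and a line at the mean of 2 libraries. The 207 SUTs stay between 10.461 and 13.7%, while the 437 SUTs with a ratio of 2 or more span 6.93 to 26.0%.

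The 207 SUTs were shorter than the other SUTs at the density bound. Lengths were recovered from the densities, as the length that turns a feature's 8 values into whole reads. The median was 433 nt (quartiles 301 and 709) for the 207 and 1025 nt (quartiles 609 and 1617) for those with a ratio of 2 or more, and 13.0% against 52.2% were 1000 nt or longer. XUTs of the same bounds had a median of 409 nt and CUTs of 377 nt. Of SUTs at the density bound, those with a ratio below 2 made up 52 of 87 under 300 nt, 65 of 107 from 300 to under 500 nt, 48 of 129 from 500 to under 800 nt, 22 of 130 from 800 to under 1200 nt and 20 of 191 at 1200 nt or more. The median ratio of SUTs in these length classes was 1.62, 1.72, 2.32, 3.22 and 3.53. Shorter SUTs also had fewer reads, with a median of 10 in WT DMSO under 300 nt and 47 at 1200 nt or more, and the part of depth in this difference was not tested. The shortest of the 207 was SUT298 (73 nt) and the longest were SUT797 (2281 nt) and SUT164 (2232 nt).

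**Figure D2:**
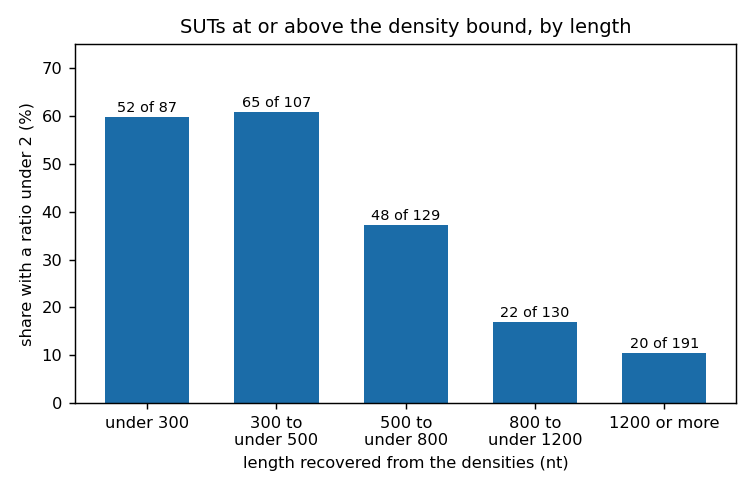
Share of SUTs at or above the density bound that had an upf1 to WT ratio below 2 in DMSO (y axis, percent) in 5 classes of recovered length (x axis, nt), with the counts above the bars. The share is 59.8 and 60.7% in the 2 shortest classes and 10.5% in the longest.

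The deposited rows follow the genome. In 6081 of 6094 neighbouring pairs of annotated genes on a chromosome the R64 start coordinate rose from row to row. The genes listed next to a SUT therefore give its neighbourhood, although not its start, its end or its strand, which were not used here. By this order the 207 SUTs lay on all 16 nuclear chromosomes, from 1 of 5 SUTs at the density bound on chromosome I and 1 of 14 on chromosome III to 24 of 58 on chromosome XII. The counts on chromosomes I, III and VI (3 of 9) are too small to rank.

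Under ANS in WT, nearly all of the SUTs rose on the snoRNA scale, as nearly all RNAs did. By limma 194 of 207 rose (adjusted p below 0.05), against 90.2% of all tested features, and 0 fell (0 at an unadjusted p below 0.05), against 0.345%. All 207 passed the filter on low values. Their median change was 1.71 (log2), beside 1.77 for all tested features, 1.72 for protein-coding genes and 2.34 for the SUTs with a ratio of 2 or more. Rescaled on protein-coding genes, 45 SUTs (21.7%) rose and 20 (9.66%) fell, against 35.8 and 19.3% of all features, and 142 did neither. The shares were also low in XUTs of the same bounds (27.1 and 6.65%) and in SUTs under the density bound (18.8 and 3.64%). On that scale the median was 0.17 for the 207, 0.28 for all features, 0.44 for XUTs of the same bounds and 0.89 for the SUTs with a ratio of 2 or more, of which 311 rose and 2 fell. The WT DMSO libraries are shared with the choice of the SUTs. The density bound took in the ANS libraries, and the median of the 207 in WT DMSO (0.0165 and 0.0168) lay below it. High levels under ANS thus helped many of them into the choice, which favours a rise. All tested features passed a lower bound (0.003397), so that their shares were not conditioned alike. With SUTs chosen on replicate 1 and changes taken from replicate 2 the relative median was 0.16 (182 SUTs), and with the reverse it was 0.43 (237 SUTs).

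In upf1 cells, too, 194 of 207 rose under ANS on the snoRNA scale, against 88.7% of all features, and 0 fell (0 at an unadjusted p below 0.05), against 0.268%. Their median change was 1.38, beside 1.37 for all features and 1.18 for the SUTs with a ratio of 2 or more. Rescaled, 30 (14.5%) rose and 14 (6.76%) fell, against 17.4 and 18.3% of all features and 16.4 and 4.43% of XUTs of the same bounds. The median of the 207 was 0.02 beside 0.02 for all features. In the SUTs with a ratio of 2 or more the median was -0.23, and 19 rose and 78 fell. The upf1 DMSO libraries, too, are shared with the choice of the SUTs, and the density bound took in the upf1 ANS libraries, which favours a rise. With SUTs chosen on replicate 1 and changes from replicate 2 the relative median was 0.01, and with the reverse it was -0.04. The rises among the 207 numbered 16 without upf1 ANS replicate 1 and 10 without upf1 ANS replicate 2. The falls numbered 5 without upf1 DMSO replicate 2, 6 without upf1 ANS replicate 1 and 9 without upf1 ANS replicate 2.

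The changes under ANS in WT and in upf1 come from separate libraries. Across the 207 SUTs they had a Pearson r of 0.76 and a Spearman rho of 0.73 relative to protein-coding genes, given as a description, since transcripts are not replicates and both strains share depth limits and the choice by DMSO values. The 2 changes lay within 1 (log2) of each other for 198 SUTs, but their difference contains the DMSO ratio that the choice kept below 2. Relative to protein-coding genes, the quartiles of this difference (upf1 less WT) were -0.35 and 0.11 for the 207. They also lay within 1 for all features (-0.62 and 0.19) and for XUTs of the same bounds (-0.49 and 0.14). On that scale 25 rose in both strains and 11 fell in both, against 13.9 and 13.3% of all features. A further 135 passed the threshold in neither strain, against 38.3%, and 1, SUT331, passed it as a fall in WT and a rise in upf1, against 2.06% in opposite directions. For SUT331 this is a description, since the DMSO values behind its low ratio enter both changes and favour these signs. By limma its WT call was lost in a fit of the 4 WT libraries (adjusted p = 0.0694). Its upf1 call was lost without the variance trend (adjusted p = 0.0567). Single libraries weighed more, with a WT change of -0.40 without WT ANS replicate 2 and an upf1 change of 0.54 without upf1 DMSO replicate 2. The ANS and DMSO libraries stood apart in opposite directions in the 2 strains for 10 SUTs, or 4.83%, against 10.3% of all features. Among the 437 SUTs with a ratio of 2 or more the changes lay within 1 of each other for 189, with 44 past the threshold in opposite directions. As the difference of the 2 changes contains the ratio that chose the sets, it is given with no test. Its median was -0.28 for the 207 and -1.14 for the 437 as deposited, beside -0.23 for all features.

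**Figure D3:**
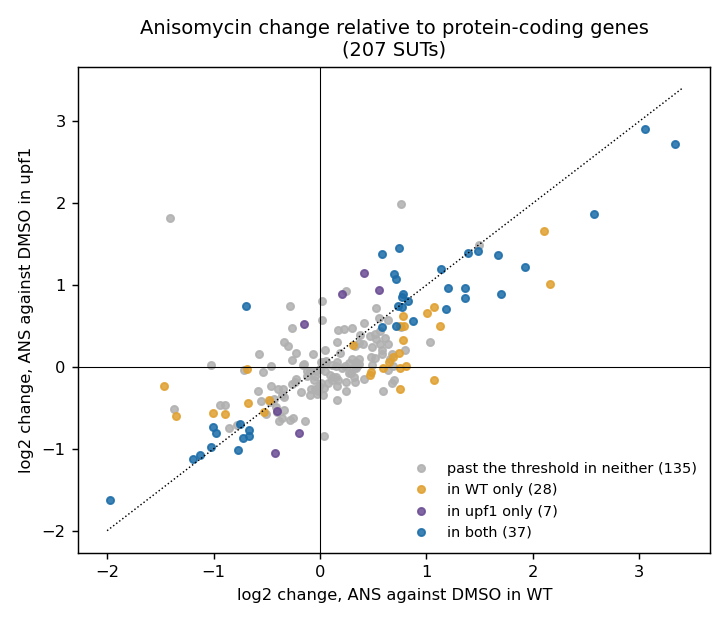
Fitted log2 change under ANS relative to protein-coding genes in WT (x axis) and in upf1 (y axis), 1 point per SUT of the 207, coloured by whether the adjusted p lay below 0.05 in WT, in upf1, in both or in neither. Of the points 198 lie within 1 of the dotted line of equal change, a distance that contains the DMSO ratio used for the choice.

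The most abundant of the 207 was SUT388, 513 nt long and listed between MSC6 (YOR354C, R64 chromosome XV, 1001147 to 1003225) and GDS1 (YOR355W, 1005137 to 1006705). Its density was 0.383 and 0.433 in WT with DMSO, 1.21 and 1.48 in WT with ANS, 0.496 and 0.528 in upf1 with DMSO and 1.54 and 1.45 in upf1 with ANS. The ANS libraries lay above the DMSO libraries in both strains, and the 2 ANS groups overlapped. The change under ANS was 1.71 ± 0.15 (SE) in WT and 1.54 ± 0.15 in upf1 as deposited, and 0.01 ± 0.09 (adjusted p = 0.919) and 0.06 ± 0.09 (adjusted p = 0.655) relative to protein-coding genes. With 528 reads in WT DMSO it is also the best measured of the 207. Among SUTs at or above the median density of the 207, it had the smallest summed change relative to protein-coding genes over the 3 tested comparisons. SUT709 and SUT073 followed.

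SUT709, 745 nt long, had 0.0641 and 0.0592 in WT with DMSO, 0.180 and 0.263 in WT with ANS, 0.0781 and 0.0679 in upf1 with DMSO and 0.201 and 0.215 in upf1 with ANS. SUT073, 377 nt long, had 0.0329 and 0.0293, 0.135 and 0.0820, 0.0400 and 0.0401, and 0.119 and 0.117 in the same order. In both SUTs the ANS libraries lay above DMSO libraries and the genotypes overlapped under ANS.

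Of the 10 most abundant SUTs, SUT298 fell relative to protein-coding genes and is described with the falls. SUT216 (505 nt), listed between the ribosomal protein gene RPL43B and the mitochondrial carrier gene SFC1 on chromosome X, had densities of 0.132 and 0.150 in WT with DMSO, 0.379 and 0.408 in WT with ANS, 0.206 and 0.206 in upf1 with DMSO and 0.498 and 0.547 in upf1 with ANS. Both upf1 libraries lay above both WT libraries with and without ANS, but the difference under ANS did not pass the threshold (0.41 ± 0.15, adjusted p = 0.179). SUT841 (409 nt) and SUT315 (633 nt) changed by 0.04 ± 0.12 (adjusted p = 0.791) and -0.13 ± 0.16 (adjusted p = 0.541) relative to protein-coding genes in WT.

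SUT091 (569 nt), listed between FCY2 and the ribosomal protein gene RPL34A on chromosome V, had 0.117 and 0.0994 in WT with DMSO, 0.588 and 0.594 in WT with ANS, 0.190 and 0.194 in upf1 with DMSO and 0.582 and 0.628 in upf1 with ANS. The genotypes were apart in DMSO, which is the contrast of the choice, and overlapped under ANS. Its rise relative to protein-coding genes was 0.74 ± 0.15 in WT (adjusted p = 0.00475) and its change in upf1 0.17 ± 0.15 (adjusted p = 0.432). SUT336 (1457 nt), listed between the histone deacetylase gene HDA1 and ARK1 on chromosome XIV, had 0.110 and 0.106, 0.438 and 0.547, 0.210 and 0.182, and 0.545 and 0.478 for WT without ANS, WT with ANS, upf1 without ANS and upf1 with ANS. It rose by 0.47 ± 0.08 in WT (adjusted p = 0.00178) and changed by -0.10 ± 0.08 in upf1 (adjusted p = 0.357). SUT794 (914 nt) rose in WT by 0.78 ± 0.14 (adjusted p = 0.00242). SUT575 (1481 nt) rose in WT by 0.31 ± 0.11 (adjusted p = 0.0490), a call lost without any of 7 of the 8 libraries, with changes of 0.17 without WT DMSO replicate 1 to 0.37 without WT ANS replicate 2. SUT143 (209 nt), with 28 reads in WT DMSO, rose relative to protein-coding genes in both strains, by 0.83 ± 0.18 in WT (adjusted p = 0.00677) and 0.81 ± 0.18 in upf1 (adjusted p = 0.0114). In upf1 its call was lost without upf1 DMSO replicate 1 (0.74, adjusted p = 0.0661) and without upf1 ANS replicate 2 (0.67, adjusted p = 0.0792).

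Among SUTs at or above the median density of the 207, which was 0.0394, SUT145 rose most under ANS in WT. It is 593 nt long and listed between UPA1 (YGR283C) and ERV29 (YGR284C) on chromosome VII. Its density was 0.00644 and 0.00349 in WT with DMSO, 0.124 and 0.122 in WT with ANS, 0.00693 and 0.00392 in upf1 with DMSO and 0.0670 and 0.0725 in upf1 with ANS. The ANS libraries lay above the DMSO libraries in both strains, and the WT ANS libraries lay above the upf1 ANS libraries. Its relative change was a rise of 2.58 ± 0.30 in WT (adjusted p = 3.82e-04) and of 1.87 ± 0.30 in upf1 (adjusted p = 0.00273), from only 7 and 10 reads in DMSO. SUT145 reached the density bound through its ANS libraries, since its DMSO densities lay below that bound. The genotypes under ANS differed by -0.79 ± 0.27 as deposited (adjusted p = 0.148).

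SUT797, the longest of the 207, lies in the listing between REV1 (YOR346W), a DNA polymerase of translesion synthesis, and PYK2 (YOR347C), a pyruvate kinase, on chromosome XV. It had 0.0159 and 0.0199 in WT with DMSO, 0.144 and 0.209 in WT with ANS, 0.0381 and 0.0339 in upf1 with DMSO and 0.262 and 0.299 in upf1 with ANS. The 4 groups did not overlap, and it had 104 reads in WT DMSO and 1133 in upf1 ANS. The difference between the genotypes under ANS did not pass the threshold on either scale. SUT797 rose relative to protein-coding genes by 1.49 ± 0.17 in WT (limma adjusted p = 3.38e-04) and by 1.42 ± 0.17 in upf1 (adjusted p = 7.17e-04). SUT154 (369 nt, next to the myosin gene MYO1 in the listing) rose by 1.39 ± 0.30 in WT (limma adjusted p = 0.00610), with 8 reads in WT DMSO. In upf1 it rose by 1.39 ± 0.30 (adjusted p = 0.00962), and it did not pass there without upf1 ANS replicate 2 (1.27). At this depth its mean densities in DMSO lay below the density bound. SUT154 thus reached the bound through its ANS libraries, and a rise was favoured by its choice.

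SUT706 (177 nt) is listed between CHS5 and the cell wall sensor gene MID2 on chromosome XII. It had 0.0324 and 0.0234 in WT with DMSO, 0.180 and 0.233 in WT with ANS, 0.0232 and 0.0230 in upf1 with DMSO and 0.165 and 0.147 in upf1 with ANS. Both upf1 libraries lay below both WT libraries with and without ANS, although in DMSO by as little as 0.0232 against 0.0234. The difference under ANS did not pass (-0.39 ± 0.22, adjusted p = 0.372). The counting intervals of its plain upf1 to WT read ratio reached across 1 (0.358 to 2.04 in DMSO, 0.489 to 1.16 under ANS). Its rise relative to protein-coding genes was 1.14 ± 0.17 in WT (adjusted p = 0.00117) and 1.19 ± 0.17 in upf1 (adjusted p = 0.00162). SUT729, the SUT nearest the ratio bound, rose by 1.36 ± 0.21 in WT (adjusted p = 0.00155), and SUT149 (1137 nt) by 1.19 ± 0.16 (adjusted p = 8.57e-04). SUT729 reached the density bound through its ANS libraries, since its DMSO means of 0.00728 in WT and 0.0176 in upf1 lay below that bound. A rise of SUT729 was thus favoured by its choice. SUT422 (521 nt), between ASA1 and the transcription factor TFIIB gene SUA7 in the listing, rose in upf1 by 1.39 ± 0.15 (adjusted p = 4.86e-04) and in WT by 0.59 ± 0.15 (adjusted p = 0.0126), of which the call in WT was lost without WT ANS replicate 2 (0.47, adjusted p = 0.0742).

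SUT269 and SUT502, which were singled out after their values were seen, had no reads in WT DMSO. SUT269 (273 nt) had 0.0350 and 0.0817 in WT ANS and 0.0388 and 0.0293 in upf1 ANS, and none in upf1 DMSO. Against a floor of 3 reads over the group it was at least 13.1-fold higher in WT ANS and at least 9.66-fold higher in upf1 ANS, so that its ratio of 1 in DMSO compares 2 groups without reads. SUT502 (337 nt) had 0.0331 and 0.0560 in WT ANS, at least 12.4-fold above the same floor. SUT269 reached the density bound through its ANS libraries alone, and SUT502 without any share from WT DMSO. High levels elsewhere were thus a condition of their choice, and these folds are a description.

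The falls relative to protein-coding genes were mostly small rises on the snoRNA scale. SUT298, listed between SEC59 and the ribosome biogenesis gene BUD22 on chromosome XIII, had 0.523 and 0.614 in WT with DMSO, 0.786 and 0.823 in WT with ANS, 0.619 and 0.605 in upf1 with DMSO and 0.743 and 0.822 in upf1 with ANS. It was the most abundant of the 207 in WT DMSO per nt. The ANS libraries lay above the DMSO libraries in both strains and the genotypes overlapped under ANS. Relative to protein-coding genes it fell by 1.19 ± 0.13 on the log2 scale in WT (adjusted p = 3.46e-04) and by 1.13 ± 0.13 in upf1 (adjusted p = 7.69e-04), while as deposited it rose by 0.50 ± 0.14 in WT, a call lost without WT DMSO replicate 1 (0.39, adjusted p = 0.0879).

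SUT305 (337 nt), listed between YMR105W-A and the stationary phase gene SPG4 on chromosome XIII, had 0.0708 and 0.106 in WT with DMSO, 0.109 and 0.148 in WT with ANS, 0.146 and 0.129 in upf1 with DMSO and 0.169 and 0.190 in upf1 with ANS. It fell by 1.12 ± 0.19 on the relative log2 scale in WT (adjusted p = 0.00232) and by 1.08 ± 0.19 in upf1 (adjusted p = 0.00447), and as deposited it changed by 0.53 ± 0.23 (adjusted p = 0.0512) and 0.37 ± 0.23 (adjusted p = 0.149). SUT230 (529 nt), between the calcineurin regulator gene RCN1 and APE2 on chromosome XI, had 0.0505 and 0.0521, 0.0693 and 0.0909, 0.104 and 0.100, and 0.138 and 0.146 for the same groups in the same order. The 4 groups did not overlap. It fell by 1.02 ± 0.12 in WT (adjusted p = 4.31e-04) and by 0.98 ± 0.12 in upf1 (adjusted p = 8.95e-04) relative to protein-coding genes, and as deposited rose by 0.60 ± 0.19 in WT (adjusted p = 0.0123), a call lost without WT DMSO replicate 1 (0.58, adjusted p = 0.0510).

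SUT098 (945 nt) fell by 1.00 ± 0.20 on the relative log2 scale in WT (adjusted p = 0.00507) and by 0.73 ± 0.20 in upf1 (adjusted p = 0.0284), the latter lost without upf1 DMSO replicate 2 (-0.53, adjusted p = 0.162) and without upf1 ANS replicate 1 (-0.57, adjusted p = 0.163). SUT212 (193 nt), between OST1 and the proteasome gene PRE3 on chromosome X, fell by 0.87 ± 0.15 in upf1 (adjusted p = 0.00334) and by 0.72 ± 0.15 in WT (adjusted p = 0.00487) on that scale and rose by 0.58 ± 0.17 in upf1 as deposited (adjusted p = 0.00859), lost without upf1 ANS replicate 2 (0.46, adjusted p = 0.0826). SUT567 (433 nt) fell in WT by 1.01 ± 0.24 (adjusted p = 0.0106), lost without WT ANS replicate 1 (-0.81, adjusted p = 0.0668). SUT721 (241 nt) passed in WT (-1.35 ± 0.47, adjusted p = 0.0435) although its WT ANS densities of 0.0331 and 0.142 lay on both sides of its WT DMSO densities of 0.0674 and 0.0486 as deposited. SUT721 also has one of the lowest DMSO ratios, chosen on the same WT DMSO libraries. The call was lost when any 1 library other than WT ANS replicate 2 was left out, with changes of -0.54 without WT ANS replicate 1 to -1.58 without WT DMSO replicate 2.

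The fitted change as deposited lay below 0 in both strains for SUT577 alone of the 207, which was looked up for this reason. This SUT (217 nt, next to RPL14B in the listing) had 0.0132 and 0.0350 in WT with DMSO, 0.00735 and 0.0237 in WT with ANS, 0.0252 and 0.0241 in upf1 with DMSO and 0.0183 and 0.0184 in upf1 with ANS. With 4 reads in WT ANS and 7 in upf1 ANS, its change as deposited did not pass in WT (-0.56 ± 0.47, adjusted p = 0.270) or in upf1 (-0.37 ± 0.47, adjusted p = 0.465).

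**Figure D4:**
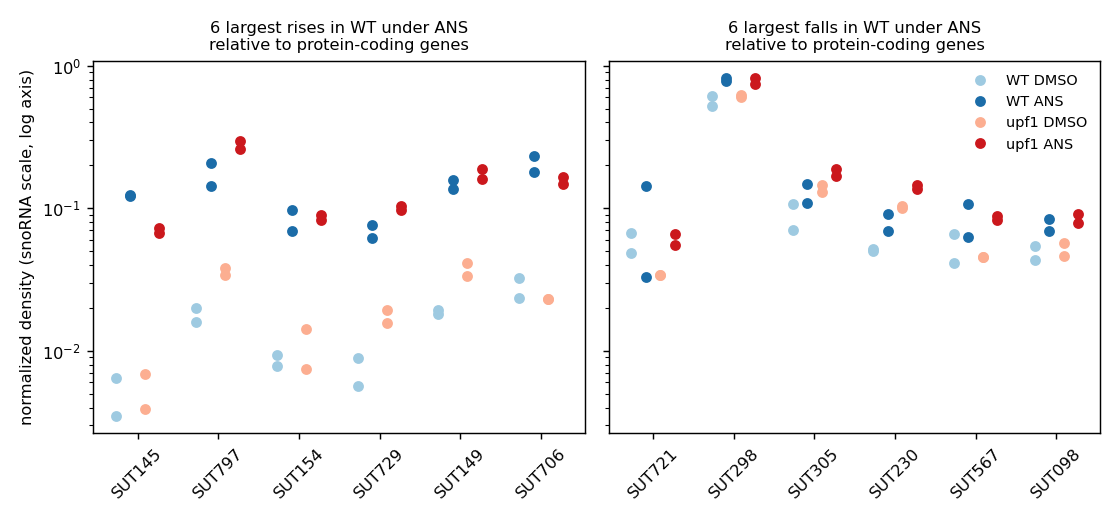
Deposited densities (y axis, log scale) of the 6 SUTs with the largest rises (left) and the 6 with the largest falls (right) under ANS in WT relative to protein-coding genes, among SUTs at or above the median density, with 1 point per library. On the left ANS points stand well above DMSO points, and on the right they lie mostly close to or above them, except 1 WT ANS library of SUT721 (0.0331, against 0.0674 and 0.0486 in WT DMSO), since these falls are relative to protein-coding genes.

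The genotype contrast under ANS repeats the contrast of the choice in 4 libraries that the ratio did not use, although their densities entered the density bound. By limma 0 of 207 SUTs rose and 0 fell in upf1 ANS against WT ANS as deposited, against 2.69 and 0.216% of all features. At an unadjusted p below 0.05, 24 were higher and 1 lower, beside 1913 and 326 of the 11579 features tested. With the replicate number as a block 1 rose, in a fit of the 4 ANS libraries alone 2 rose, and without WT ANS replicate 2, the ANS library with the highest protein-coding median, 11 rose. The median change was 0.21, beside 0.12 for all features, -0.01 for protein-coding genes, 0.18 for XUTs of the same bounds and 0.62 for the SUTs with a ratio of 2 or more, of which 55 rose and 0 fell. Both upf1 libraries lay above both WT libraries for 72 SUTs and below them for 17, against 34.7 and 9.47% of all features. A change above 0 was fitted for 158 of the 207 SUTs (76.3%) and for 420 of the 437 (96.1%). The share was 62.8% of all features and 71.6% of XUTs of the same bounds.

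As ratios of group means, the 207 SUTs had a median of 1.13 under ANS (quartiles 0.995 and 1.33, range 0.571 to 3.22), beside 1.52 for the SUTs with a ratio of 2 or more, 1.13 for XUTs of the same bounds and 0.989 for protein-coding genes. A ratio of 2 or more under ANS was found for 3 of 207 SUTs, or 1.45%, against 4.71% of all features and 12.6% of the SUTs with a ratio of 2 or more in DMSO. That count was 5 without WT ANS replicate 1, 5 without upf1 ANS replicate 2 and 16 without WT ANS replicate 2. The counting interval of the ratio under ANS lay below 2 for 125 SUTs, reached 2 for 82 and lay above 2 for 0. It lay above 1 for 31 and below 1 for 1. The median ratio under ANS was 1.04 for the 68 SUTs with a DMSO ratio from 0.8 to its reciprocal, 1.10 for the 42 from there to 1.5 and 1.24 for the 92 between 1.5 and 2.

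**Figure D5:**
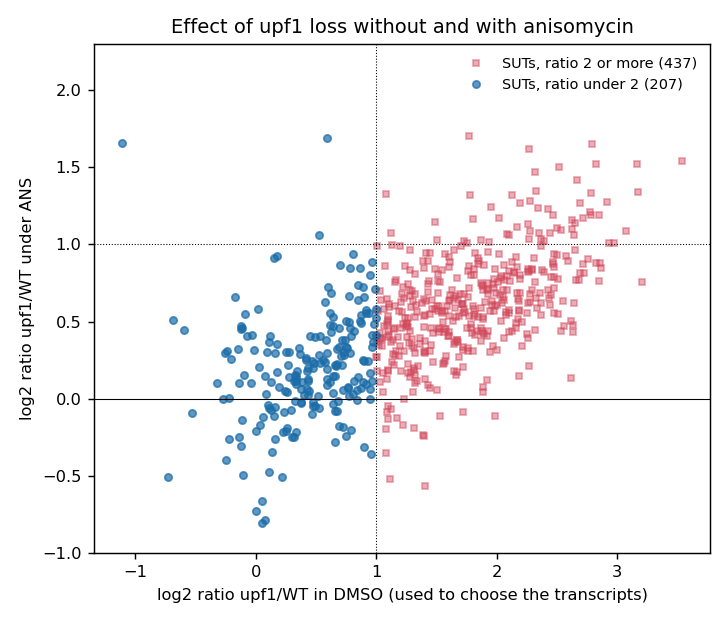
Log2 ratio of upf1 to WT under ANS (y axis) against the same ratio in DMSO (x axis, the value that chose the SUTs), 1 point per SUT at or above the density bound, with dotted lines at a ratio of 2. Of the SUTs left of the vertical line 3 lie above the horizontal one, and of the 437 to its right 55 do.

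The 3 SUTs with a ratio of 2 or more under ANS were named after this was seen, and all were sparse. SUT378 had 4 reads in WT ANS and 21 in upf1 ANS, with densities of 0.0147 and 0.0158 against 0.0610 and 0.0507. SUT297 had 17 and 53 reads, with 0.0293 and 0.00677 against 0.0504 and 0.0315. SUT563 (129 nt), listed between the thiamine synthesis gene THI4 and ENP2 on chromosome VII, had the lowest ratio in DMSO (0.464) and a ratio of 3.16 under ANS. Its densities were 0.0296 and 0.0214 in WT with DMSO, 0.0494 and 0.0133 in WT with ANS, 0.0159 and 0.00451 in upf1 with DMSO and 0.133 and 0.0775 in upf1 with ANS, from 8, 5, 4 and 23 reads. The WT ANS libraries lay on both sides of the WT DMSO libraries. The difference under ANS was 1.82 ± 0.56 with adjusted p = 0.114.

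After rescaling on protein-coding genes, 5 of 207 SUTs rose in upf1 ANS against WT ANS and 0 fell, against 5.4 and 1.92% of all features. At an unadjusted p below 0.05, 2 were lower, beside 1033 of the 11579 features tested. The 5 that rose were also named after their values were seen, and each had a DMSO ratio above 1.5. SUT230, whose values are given above, rose by 0.76 ± 0.12 (adjusted p = 0.0156). SUT164, listed between the hexose transporter genes HXT1 (YHR094C, chromosome VIII, 290913 to 292625) and HXT5 (YHR096C, 294669 to 296447), had 0.0207 and 0.029996 in WT ANS against 0.0540 and 0.0489 in upf1 ANS and rose by 0.86 ± 0.19 (adjusted p = 0.0388). SUT641 (697 nt), listed between ANB1 (YJR047C, chromosome X, 524908 to 525381), the hypoxic translation factor eIF5A gene, and CYC1 (YJR048W, 526335 to 526664), the gene of cytochrome c, had 0.0503 and 0.0640 against 0.0988 and 0.0890 and rose by 0.64 ± 0.14 (adjusted p = 0.0437).

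SUT015 (329 nt), between the repressor gene NRG2 and the cell wall gene TIP1 on chromosome II, rose by 0.79 ± 0.17 (adjusted p = 0.0403), and SUT278 (385 nt) by 0.54 ± 0.13 (adjusted p = 0.0482). As deposited none of the 5 passed, with SUT230 nearest (0.81 ± 0.19, adjusted p = 0.0541). Without any 1 of the 4 ANS libraries 0 of the 207 rose on the relative scale, without either upf1 DMSO library 1 did, and without either WT DMSO library 7 did. With the replicate number as a block 3 rose, of which SUT230 was the 1 among these 5, and SUT015, SUT164, SUT278 and SUT641 had adjusted p of 0.0527, 0.0542, 0.0555 and 0.0617.

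The 5 SUTs with the lowest ratios in DMSO are given as a description. They were SUT563 (0.464), SUT721 (0.605), SUT331 (0.622), SUT535 (0.664) and SUT809 (0.695), with lengths of 129 to 321 nt and 4 to 34 reads per DMSO group. Under ANS, in libraries not used for the ratio, their ratios were 3.16, 0.701, 1.43, 1.36 and 0.935, so that 3 lay above 1 and 2 below. SUT535 had WT densities of 0.0257 and 0.0334 in DMSO and 0.0257 and 0.0369 under ANS, which overlap. SUT331 (193 nt), between the RNA helicase gene DBP2 and CYB5 on chromosome XIV, had 0.0495 and 0.05001 in WT with DMSO, 0.107 and 0.0889 in WT with ANS, 0.0355 and 0.0241 in upf1 with DMSO and 0.137 and 0.145 in upf1 with ANS. Both upf1 libraries lay below both WT libraries in DMSO and above both under ANS. Its relative change under ANS was -0.70 ± 0.23 in WT and 0.74 ± 0.23 in upf1, given with no test, since the DMSO values that chose SUT331 for its low ratio also enter both changes and favour these signs. As deposited its density was higher under ANS in both strains.

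By the fitted difference between the 2 changes under ANS, again a description, SUT563 (3.04), SUT331 (1.22) and SUT275 (0.69) lay highest and SUT361 (-1.17), SUT145 (-0.86) and SUT091 (-0.78) lowest among SUTs at or above the median density. SUT275 had 0.0305 and 0.0352 in WT with DMSO, 0.0611 and 0.0219 in WT with ANS, 0.0262 and 0.0353 in upf1 with DMSO and 0.0381 and 0.0863 in upf1 with ANS. Its WT groups overlapped, and both upf1 ANS libraries lay above both upf1 DMSO libraries and overlapped the WT ANS libraries, from 16 to 36 reads per group. SUT361 (321 nt), listed between the cell wall gene TIR2 and the sterol transporter gene AUS1 on chromosome XV, had 0.0149 and 0.0150, 0.0695 and 0.107, 0.0320 and 0.0290, and 0.0784 and 0.0623 in that order. Its genotypes were apart in DMSO and overlapped under ANS.

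The mRNAs of decay and termination factors that act on noncoding RNAs were counted beside the SUTs. Of 21 such genes besides NAM7, among them those of NMD, decapping, Xrn1, the nuclear exosome and the Nrd1 complex, 21 rose under ANS in WT and 21 in upf1 as deposited. So did 90.2% of all features in WT and 88.7% in upf1. On the relative scale 9 rose and 8 fell in WT, beside 35.8 and 19.3% of all features, and 7 rose and 6 fell in upf1, beside 17.4 and 18.3%. In upf1 DMSO against WT DMSO 2 rose and 0 fell as deposited (31.6 and 0.613% of all features), and 2 rose and 12 fell on the relative scale (30.9 and 16.4%). The rises as deposited were those of NMD4 (2.09 ± 0.16, adjusted p = 1.83e-05) and EBS1 (1.22 ± 0.17, adjusted p = 3.29e-04), both genes of NMD factors, named after their values were seen. In upf1 ANS against WT ANS 0 rose and 0 fell as deposited (2.69 and 0.216% of all features). On the relative scale 1 rose and 2 fell (5.4 and 1.92%).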

How the data were processed

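Values are normalized densities, a signal the authors deposited for 8 libraries, with 4 further columns of their group means. The submitters' processing notes name build R64, DESeq2, featureCounts 2.0.0, HISAT2 2.2.0 and Trim Galore; the role of each is not given in the sources used here. One length of 20 to 20000 nt per feature made the values whole reads, to within 1e-05 reads, for 11954 features; 12 were 0 throughout. The factors matched size factors of 76 snoRNAs up to a ratio of 1.004. Of SUT lengths 810 of 844 were 1 nt above a multiple of 4 (200 of the 207). A length can be a fraction of the true one where counts share a divisor. Recovered reads serve depth only, and spike-in RNA was not used here.

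Features were tested with limma 3.58.1 (R 4.3.3). The scale was log2(density + 0.003397), where 0.003397 is the 5th percentile of values above 0, so that changes of low features are understated. The model had 1 mean for each group, used all 8 libraries and a variance trend, and was two-sided, over 11579 features with a mean at or above that value (387 left out), and adjusted by Benjamini and Hochberg at 0.05. The relative scale divides each library by its median ratio over 5746 protein-coding genes. Replicate numbers are not stated to pair cultures. Genes were matched to RefSeq R64 by locus tag.

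The 207 SUTs, the lists and the tests were chosen with earlier results of these data known. Named SUTs are the 10 of highest mean density, the 6 largest rises and falls for ANS in WT and 4 in upf1 (relative scale, past the threshold, groups apart, density at or above the median), those past the threshold for upf1 under ANS, the nearest to the bounds, the 5 lowest ratios, the extremes of the interaction and the 3 steadiest. Alternatives were other pseudocounts, no filter, no trend, a replicate block, fits of 4 libraries, other bounds and leaving out each library.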

Additional observations from a re-analysis of the deposited data

Results flagged for a closer look

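For 10 of the 207 SUTs both ANS libraries moved one way from both DMSO libraries in WT and the other way in upf1, relative to protein-coding genes, against 10.3% of all features. The named ones were SUT331 (-0.70 in WT and 0.74 in upf1), SUT336 (0.47 and -0.10), SUT361 (0.75 and -0.27), SUT563 (-1.41 and 1.82) and SUT641 (-0.064 and 0.15), as log2 changes under ANS. The difference was not tested, since it contains the ratio by which the SUTs were chosen. SUT563 and SUT331 have 4 to 48 reads per group.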

How the results depend on the processing

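Directions of the named SUTs past the threshold did not reverse within either scale under any setting run. Of their 106 results, other settings left 605 values past the threshold and 31 not, and leaving out a library left 750 and 98. Rescaling on protein-coding genes changed the counts of rises and falls under ANS from 194 and 0 to 45 and 20 in WT and from 194 and 0 to 30 and 14 in upf1, and the rises in upf1 under ANS from 0 to 5. With 5 times the pseudocount 9 SUTs rose and 1 fell in upf1 under ANS. The fit of the 4 ANS libraries gave 2 rises as deposited and 1 relative. Of 75 SUTs with a mean density of 0.05 or more, 11 (14.7%) fell in WT and 8 (10.7%) in upf1 on the relative scale, and 0 had a ratio of 2 or more under ANS. The bounds on rescaled densities chose 220 SUTs, 174 of them among the 207.

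Leaving out each library gave, for ANS in WT, 180 to 199 rises and 0 to 2 falls as deposited and 31 to 50 and 15 to 19 relative. For ANS in upf1 it gave 176 to 195 rises and 0 falls as deposited and 10 to 34 and 5 to 17 relative. For upf1 under ANS it gave 0 to 11 rises as deposited, 0 to 7 relative and 0 falls on both scales. Ratios of 2 or more under ANS numbered 4 to 16. The cause was not tested.

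Replicate differences with the same number correlated by -0.05 to 0.17 between groups, so that the numbers are not taken as pairs. With a replicate block 1 SUT rose in upf1 under ANS as deposited and 3 relative, and the other counts stayed within 1.5 times. Depth limits what can be seen, with a median of 18 reads per SUT in WT DMSO.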
